A study of Mus musculus with 6 samples.

Results

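The OAS genes of the mouse studied here are 8 members of the oligoadenylate synthetase family, Oas1a, Oas1b, Oas1c, Oas1g, Oas2, Oas3, Oasl1 and Oasl2. They were taken by gene symbol, from a list drawn up with earlier results of these data known, and are 8 of the 25124 gene rows of the deposited table. RNA was sequenced from colon macrophages of C57BL/6 mice, in 3 libraries from mice with macrophage-specific transgenic overexpression of E4BP4 (TG) and 3 from wild type mice (WT). E4BP4, a transcription factor of the basic leucine zipper class, is the product of Nfil3. All mice were 8 weeks old, and both groups had colitis induced by dextran sulfate sodium (DSS), a polymer that injures the colonic epithelium. It was given at 2.0% in drinking water for 7 days, followed by 7 days of water without it, with collection on day 14. No library came from mice without DSS. Macrophages were sorted from lamina propria suspensions. The promoter that drives the transgene was not given in the sources used here. The titles were followed for the groups, since the genotype field of TG replicates 2 and 3 reads E4BP5 and E4BP6.

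OAS enzymes are sensors of double-stranded RNA, a product of viral replication. On binding it, the active members join ATP into short oligoadenylates, second messengers that lead to cleavage of viral and cellular RNA. The genes are known as targets of type I interferon, whose receptor signals through the ISGF3 complex, which holds Stat2 and Irf9. ISGF3 binds the interferon-stimulated response element, a repeat of GAAA in the promoters of its targets.

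Values are TPM, which are scaled for exon length and depth and so allow comparison between genes, less so where transcripts share sequence. Over the deposited gene rows they sum to 543612 to 545319 per library. Library totals in the file headers were 17.25 to 18.90 M (1e6) reads, and reads in genes, recovered from the TPM, came to 13.97 to 15.06 M. Nfil3 was at 133, 134 and 141 TPM in TG libraries, against 117, 120 and 119 TPM in WT libraries (log2 fold change 0.19, limma adjusted p = 0.00261). The authors' deposited table gives Nfil3 a log2 fold change of 0.093 (adjusted p = 0.0169). All 10 macrophage markers examined were detected, with a sum of 13070 to 13101 TPM in TG and 12929 to 13097 TPM in WT libraries. Of these Adgre1, Csf1r, Cx3cr1 and C1qa rose and Cd68, Fcgr1, Mertk and Cd14 fell. Nothing in the labels states that replicates are separate mice, and p-values here then reflect the spread of these 6 libraries alone, which may be technical. In such bulk samples, more cells of a type and more RNA per cell cannot be told apart.

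Promoter sequences were read because OAS genes are known targets of ISGF3. RefSeq promoter entries (GRCm38.p6, 250 bases before to 50 after the start) matched 6 of the 8 genes. Oas2 and Oas1b had no entry. The response element core, GAAA, any 2 bases and GAAA again, searched on both strands, stood in 4 of the 6 entries, those of Oas1a, Oas1g, Oas1c and Oas3. The entries of Oasl1 and Oasl2 did not hold it. Of all 32851 windows of that length 3.44% held it. The stretches below are shown because they hold that core, as 30 bases on the strand of the gene named, with the core or overlapping cores in capitals.
Oas1a, chr5:120907528-120907557, minus strand: tgcccttctcggGAAATGGAAACTGAAAat
Oas1g, chr5:120887614-120887643, minus strand: tgcccttctcggGAAATGGAAACTGAAAat
Oas1b, chr5:120812601-120812630, plus strand: cgcccttcccggGAAATGGAAACTGAAAgt
Oas3, chr5:120777717-120777746, minus strand: cagcagggaggaGAAAACGAAAgtgaaggg
The stretches of Oas1a and Oas1g were identical at 30 of 30 bases, and that of Oas1b matched Oas1a at 27 of 30. In each of these 3 the capitals hold 2 overlapping cores, and in Oas3 they hold 1. The capitals end 5 bases before the start of Oas1a, 3 before that of Oas1g, 10 before that of Oas1b and 66 before that of Oas3. The Oas1b stretch was read from the entry of Oas1c, where it stands on the other strand, because the starts of Oas1b and Oas1c face away from each other with 123 bases between them. The core counted for Oas1c is therefore the same stretch. Over the 250 bases before the start, Oas1a and Oas1g were 86.9% identical, at 212 of 244 aligned bases.

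A STAT element, searched as TTCNNNGAA on both strands, was found in the entry of Oas1a alone, or 1 of 6, and in 8.30% of all windows. The E4BP4 elements TTATGTAA and TTACGTAA were in none of the 6 entries, against 0.938% and 0.119% of all windows. With 6 entries, neither this absence nor the single STAT element can be told apart from those shares. All of these are searches for letters in a short window and show no binding. Among 30 other type I interferon response genes, 24 had an entry and 11 of these held the core.

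The comparison of TG with WT libraries gives the difference in RNA levels between the 2 genotypes after DSS. Markers of other cell types also differed between these sorted samples, and the part of E4BP4 itself was not tested. In it 5 OAS genes rose, Oas1a, Oas1g, Oas2, Oasl1 and Oasl2, none fell, and Oas1b, Oas1c and Oas3 did not pass the test. All 8 passed the filter, a mean of 1 TPM or more in TG or in WT. Tests were made with limma on log2(TPM + 1) over 12633 genes, with a threshold of 0.05 for the Benjamini-Hochberg adjusted p. Of all tested genes 8.71% (1100) were called higher and 13.2% (1666) lower in TG, so 5 of 8 stands against 8.71%. Without TG replicate 2 the count of genes called higher was 704, and without TG replicate 3 it was 721. With upper-quartile scaling 52.0% of all calls were higher, against 39.8%. The median log2 fold change was 0.52 over the 8 OAS genes and -0.01 over all tested genes. Every TG library lay above every WT library for 6 of the 8, against 17.1% of all tested genes.

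**Figure D1:**
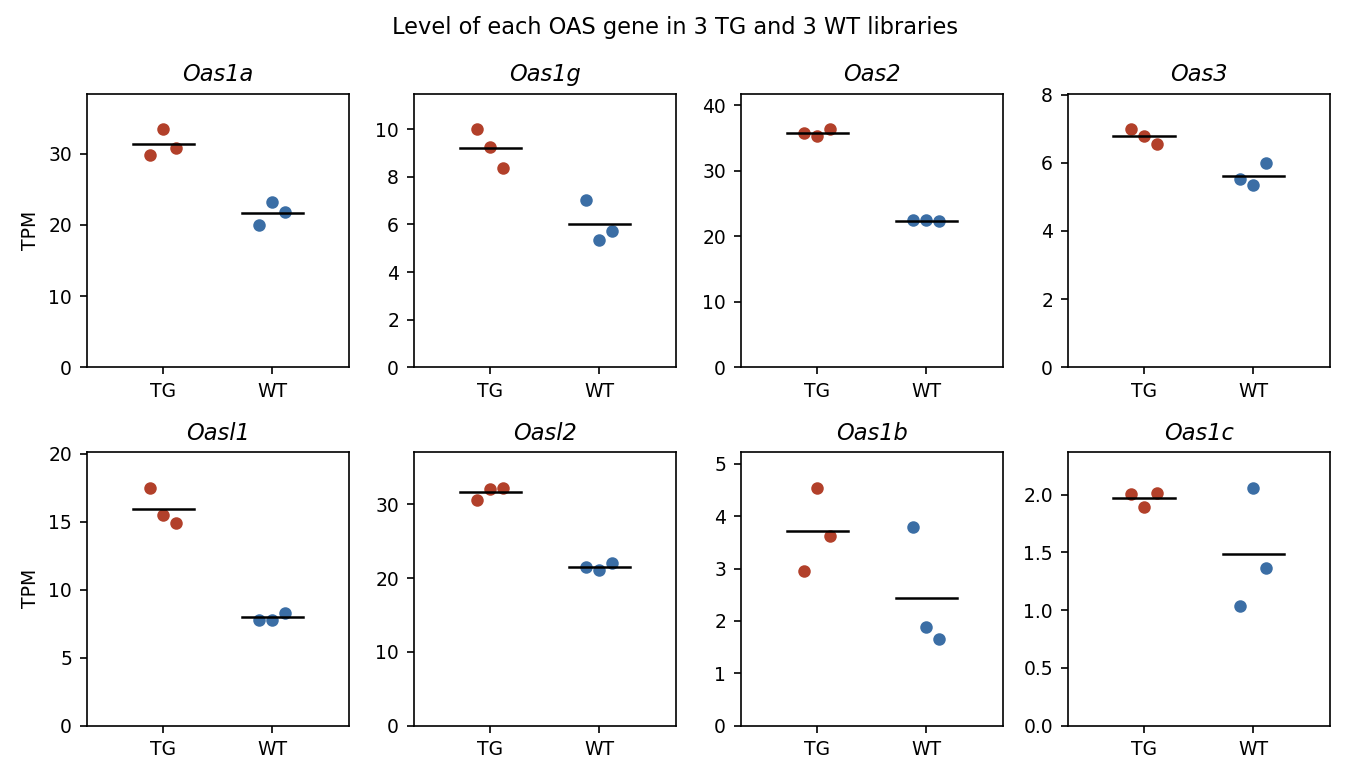
TPM of each of the 8 OAS genes in the 3 TG libraries (left in each panel) and the 3 WT libraries, with points for libraries and a line for the group's mean. The groups do not overlap for Oas1a, Oas1g, Oas2, Oas3, Oasl1 and Oasl2 and overlap for Oas1b and Oas1c.

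Oas2 encodes a synthetase with a repeated OAS unit. By mean TPM Oas2 was the most abundant of the 8 genes in both groups, though in WT it overlapped Oas1a. It lies on chromosome 5 at 120730333 to 120749848, minus strand (NM_145227, mm10). Oas2 was at 35.7, 35.4 and 36.3 TPM in TG libraries, against 22.5, 22.4 and 22.2 TPM in WT libraries. The groups did not overlap, and the gap between them was far wider than the spread within either. The means were 35.8 ± 0.493 TPM in TG and 22.4 ± 0.119 TPM in WT (SD, n = 3 each), a ratio of 1.60. The log2 fold change was 0.65, with a 95% interval of 0.57 to 0.74 (limma adjusted p = 2.24e-05). It rested on 5338 reads in TG and 3244 in WT.

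Oas1a and Oas1g encode the catalytically active Oas1 enzymes of the mouse and neighbour each other on chromosome 5. Oas1a (120896257 to 120907525, minus strand, NM_145211, mm10) was at 29.8, 33.5 and 30.8 TPM in TG libraries, against 20.0, 23.3 and 21.8 TPM in WT libraries. All 3 TG values stood above all 3 WT values. Its means were 31.4 ± 1.89 TPM in TG and 21.7 ± 1.63 TPM in WT (SD, n = 3 each), a ratio of 1.45 and a log2 fold change of 0.51 ± 0.067 (SE, limma adjusted p = 0.00138). Oas1g (120876142 to 120887613, minus strand, NR_126529, mm10) was at 10.01, 9.27 and 8.40 TPM in TG libraries, against 7.02, 5.35 and 5.72 TPM in WT libraries. Here too the groups did not overlap, though Oas1g was the lower of the pair in every library. Its means were 9.22 ± 0.807 TPM in TG and 6.03 ± 0.879 TPM in WT (SD, n = 3 each), a ratio of 1.53 and a log2 fold change of 0.55 ± 0.107 (SE, limma adjusted p = 0.00905).

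The transcripts of Oas1a and Oas1g are near copies, and the split of reads between them is uncertain. Of the 50-base stretches of the Oas1a transcript, 57.6% also occur in Oas1g, and 54.7% of those of Oas1g occur in other genes. How reads that match both were counted is not given in the sources used here. The ratio of Oas1a to Oas1g was 2.98, 3.61 and 3.66 in TG libraries and 2.85, 4.35 and 3.81 in WT libraries, and these overlap. The sum of Oas1a, Oas1b, Oas1c and Oas1g depends little on how reads were split among them. It still depends on whether reads that match several genes were left out, which is not given. The sum was 44.8, 49.2 and 44.8 TPM in TG libraries, against 31.8, 32.5 and 30.5 TPM in WT libraries. Entered in the limma fit in place of its 4 genes, the sum gave a log2 fold change of 0.53 ± 0.049 (SE, adjusted p = 0.000232).

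Oas3, the largest synthetase, carries several OAS units in tandem. It lies on chromosome 5 at 120753098 to 120777659, minus strand (NM_145226, mm10), next to Oas2. Oas3 was at 6.98, 6.79 and 6.55 TPM in TG libraries, against 5.52, 5.36 and 5.99 TPM in WT libraries. The groups did not overlap, with the lowest TG library close above the highest WT library. The means were 6.77 ± 0.217 TPM in TG and 5.62 ± 0.327 TPM in WT (SD, n = 3 each). The log2 fold change of 0.23, with a 95% interval of 0.06 to 0.40, did not pass the test (limma adjusted p = 0.0612). It passed under 4 other settings, with an adjusted p of 0.0199 on log2 CPM of recovered reads, 0.0354 without the trend, 0.0398 with upper-quartile and 0.0497 with median-of-ratios scaling. Its log2 fold change was 0.25 to 0.28 under those that changed the values. Under the other 12 of 16 settings Oas3 did not pass. Its adjusted p was 0.109 with no filter, 0.119 with a replicate block and 0.0654 to 0.159 with each library left out.

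Oasl1 and Oasl2 are OAS-like genes whose proteins end in ubiquitin-like domains. They stand next to each other on chromosome 5, apart from the cluster of the other 6. Oasl1 lacks synthetase activity and is known to restrain translation of Irf7, a transcription factor that drives type I interferon genes. Oasl1 (114923240 to 114937911, plus strand, NM_145209, mm10) was at 17.5, 15.5 and 14.9 TPM in TG libraries, against 7.81, 7.80 and 8.29 TPM in WT libraries. It had the largest log2 fold change of the 8 genes, 0.92 with a 95% interval of 0.75 to 1.09 (limma adjusted p = 0.000113). The means were 15.9 ± 1.38 TPM in TG and 7.96 ± 0.281 TPM in WT (SD, n = 3 each), a ratio of 2.00, from 1306 reads in TG and 634 in WT.

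Oasl2, which has synthetase activity in mouse, was at 30.7, 32.1 and 32.3 TPM in TG libraries, against 21.5, 21.1 and 22.1 TPM in WT libraries (114896934 to 114912245, plus strand, NM_011854, mm10). All 3 TG libraries were higher than all 3 WT libraries. The means were 31.7 ± 0.893 TPM in TG and 21.5 ± 0.514 TPM in WT (SD, n = 3 each), a ratio of 1.47. The log2 fold change was 0.54 with a 95% interval of 0.43 to 0.64 (limma adjusted p = 0.00012). The transcripts of Oas2, Oasl1 and Oasl2 share no 50-base stretch with another gene.

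**Figure D2:**
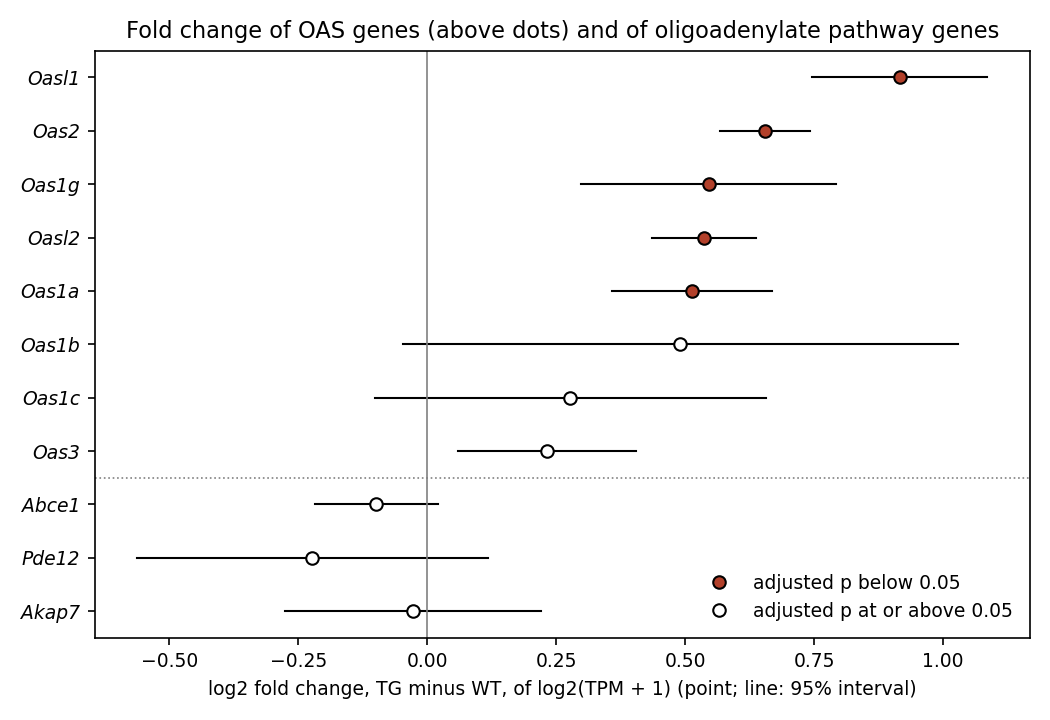
Log2 fold changes (TG minus WT, on log2(TPM + 1)) of the 8 OAS genes above the dotted line and of Abce1, Pde12 and Akap7 under it, with 95% intervals as lines and filled points for an adjusted p below 0.05. Oasl1 stands at 0.92, Oas1a, Oas1g, Oas2 and Oasl2 between 0.51 and 0.65, and the intervals of Oas1b, Oas1c and the 3 genes under the dotted line include 0.

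Oas1b and Oas1c encode proteins without synthetase activity. Oas1b is known for resistance to flaviviruses, and C57BL/6 mice carry a premature stop in it; GENCODE M21 types the gene as a polymorphic pseudogene. Oas1b (120812638 to 120824160, plus strand, NM_001083925, mm10) was at 2.96, 4.54 and 3.63 TPM in TG libraries, against 3.79, 1.88 and 1.66 TPM in WT libraries. WT replicate 1 lay within the TG range, with 85 reads against 44 and 38 in the other WT libraries. The log2 fold change was 0.49 with a 95% interval of -0.05 to 1.03 (limma adjusted p = 0.179), and without WT replicate 1 it was 0.75 (adjusted p = 0.0230). On log2 CPM of recovered reads it was 0.68 (adjusted p = 0.0249). It was smaller without WT replicate 3, at 0.33 (adjusted p = 0.400), and without TG replicate 2, at 0.37 (adjusted p = 0.403), and the authors' deposited table gives Oas1b 0.20. Oas1c (120800199 to 120812514, minus strand, NM_033541, mm10) was the lowest of the 8, at 2.01, 1.89 and 2.02 TPM in TG libraries, against 1.04, 2.06 and 1.37 TPM in WT libraries. WT replicate 2 was the highest of the 6 libraries. The log2 fold change of Oas1c was 0.28 with a 95% interval of -0.10 to 0.66 (limma adjusted p = 0.276), from 174 reads in TG and 128 in WT. It was 0.14 without WT replicate 1 and 0.44 without WT replicate 2 (adjusted p = 0.570 and 0.0787).

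The library kit is not described as keeping strand, so reads from a gene and its antisense partner could not be told apart. Exons of Oas1c overlap the antisense gene Gm43069 by 227 bases, and those of Oasl1 overlap the antisense gene Gm13822 by 38 bases. Of the 50-base stretches of Oas1c, 16.3% also occur in other genes, and of Oas1b 3.41%. Of the other Oas1 genes, Oas1d, Oas1e and Oas1f were at 0 in all 6 libraries. A count of 0 allows up to 0.141 TPM for Oas1d, 0.167 for Oas1e and 0.166 for Oas1f, for counting error only. Oas1h fell below the filter, with 13 reads in TG and 2 in WT libraries.

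The exact two-sided permutation test of mean TPM gave p = 0.10 for each of the 6 genes whose groups did not overlap, the smallest value that 3 against 3 libraries allow. The same exact test gave p = 0.3 for Oas1b and p = 0.4 for Oas1c. With each library left out in turn, the 5 genes that rose kept an adjusted p of at most 0.0360, the value of Oas1g. In the authors' deposited table, which counts over the gene span with introns, 11.2% of 20884 genes were called higher in TG, and so were the same 5 OAS genes. The authors' deposited table gives Oasl1 a log2 fold change of 1.13 and the other 4 values of 0.48 to 0.64. Adjusted p in the authors' deposited table was 0.101 for Oas3, 0.480 for Oas1b and 0.355 for Oas1c.

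Summed over the 8 genes, OAS RNA came to 135.6, 138.9 and 134.8 TPM in TG libraries, against 89.1, 89.2 and 89.1 TPM in WT libraries. The ratio of the mean sums was 1.53. The sum was carried by Oas2, Oasl2 and Oas1a, which together held 72.4% of it in TG and 73.6% in WT. Oasl1 held 11.7% in TG and 8.93% in WT, while Oas3 held 4.96% in TG and 6.30% in WT. Oasl1 and Oas3 were set against each other after their values were seen, as the called gene with the largest change and the synthetase with the smallest. The ratio of Oasl1 to Oas3 was 2.51, 2.28 and 2.27 in TG libraries and 1.41, 1.46 and 1.39 in WT libraries, without overlap.

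By mean TPM in TG macrophages the order was Oas2, Oasl2, Oas1a, Oasl1, Oas1g, Oas3, Oas1b and Oas1c. Of the neighbours in this order only Oasl2 and Oas1a overlapped over the TG libraries. In WT macrophages the order was Oas2, Oas1a, Oasl2, Oasl1, Oas1g, Oas3, Oas1b and Oas1c. There Oas1a overlapped both Oas2 and Oasl2, and Oas1g overlapped Oas3 and Oas1b overlapped Oas1c. In both groups the places of Oas1a and Oas1g depend on how reads that match both were counted, which is not given.

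Of 3 genes that act downstream of the synthetases none passed the test in either direction (median log2 fold change -0.10). Abce1, a ribosome recycling factor that also acts in the oligoadenylate pathway, averaged 20.7 ± 0.884 TPM in TG and 22.2 ± 0.752 TPM in WT (SD, n = 3 each; limma adjusted p = 0.218). The authors' deposited table calls Abce1 lower (log2 fold change -0.18, adjusted p = 0.0119). Pde12 and Akap7 encode enzymes that degrade oligoadenylates. Pde12 averaged 6.07 ± 1.47 TPM in TG and 7.15 ± 0.727 TPM in WT (SD, n = 3 each; limma adjusted p = 0.328). Akap7 averaged 5.40 ± 0.861 TPM in TG and 5.49 ± 0.0964 TPM in WT (SD, n = 3 each; limma adjusted p = 0.885).

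**Figure D3:**
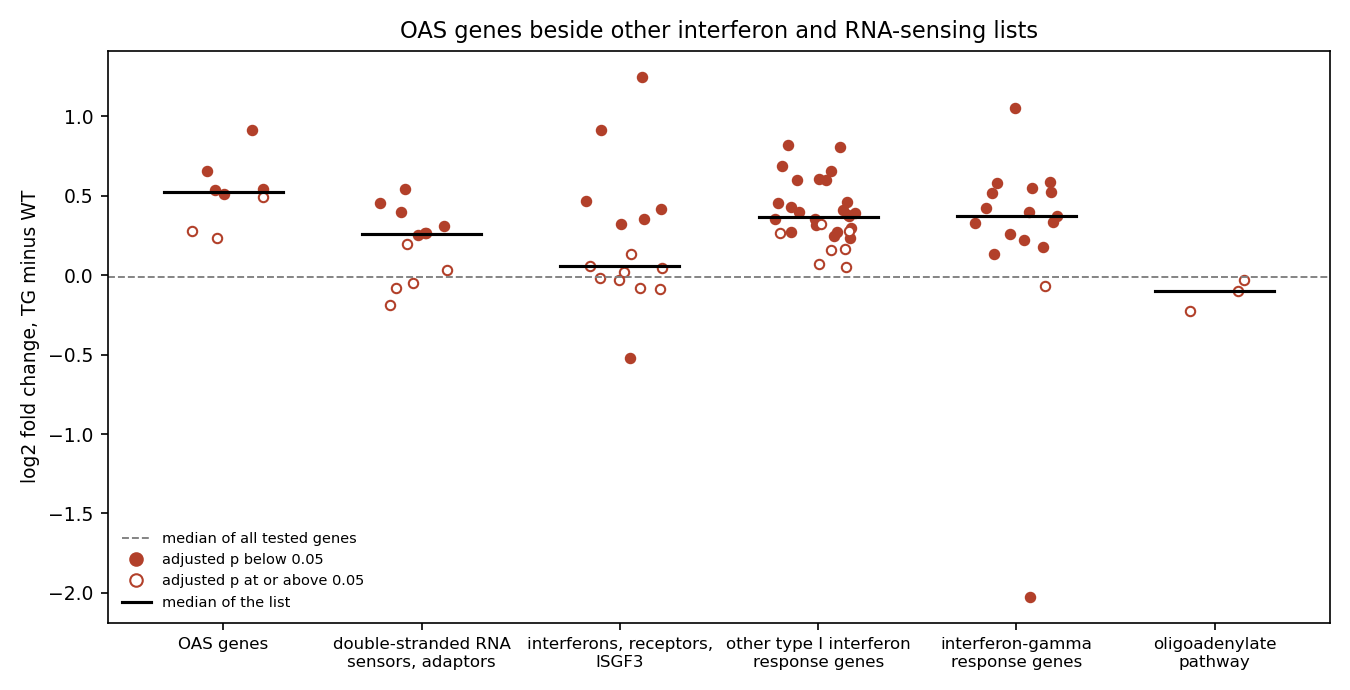
Log2 fold changes (TG minus WT, on log2(TPM + 1)) of the tested genes of each list, with filled points for an adjusted p below 0.05 and a bar for the list's median. The OAS genes have a median of 0.52, the oligoadenylate pathway -0.10, the sensors of double-stranded RNA 0.26, the interferon signalling list 0.06, the other type I interferon response genes 0.36 and the interferon-gamma response genes 0.37.

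Of 12 sensors of double-stranded RNA and their adaptors, 7 rose and none fell, with a median log2 fold change of 0.26. Zbp1, a sensor of Z-form nucleic acid, averaged 39.8 TPM in TG and 27.0 TPM in WT (log2 fold change 0.54, limma adjusted p = 0.000213). Ddx58 encodes the sensor RIG-I and rose by 0.45 on the log2 scale (adjusted p = 0.00146), and Dhx58, which encodes LGP2, by 0.31 (adjusted p = 0.00397). Eif2ak2, the kinase PKR that halts translation on binding double-stranded RNA, rose by 0.27 (adjusted p = 0.00802). Irf7, the target of Oasl1, averaged 46.3 ± 3.13 TPM in TG and 35.0 ± 3.88 TPM in WT (SD, n = 3 each; log2 fold change 0.40, limma adjusted p = 0.0123). Irf7 was named after its value was seen.

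Of 21 genes for interferons, their receptors and the ISGF3 pathway, 15 passed the filter, of which 6 rose and 1 fell, with a median log2 fold change of 0.06. Stat2, a subunit of ISGF3, averaged 35.5 TPM in TG and 26.3 TPM in WT (log2 fold change 0.42, limma adjusted p = 0.000307). Irf9, the DNA-binding subunit, averaged 41.8 TPM in TG and 33.2 TPM in WT (log2 fold change 0.32, adjusted p = 0.00805). Irf1, a factor that binds related promoter elements, averaged 149 TPM in TG and 107 TPM in WT (log2 fold change 0.47, adjusted p = 2.9e-05). The gene for the receptor subunit Ifnar1 averaged 58.8 TPM in TG and 60.0 TPM in WT (adjusted p = 0.550). The gene that fell, Socs1, encodes an inhibitor of interferon signalling and averaged 5.76 TPM in TG and 8.68 TPM in WT (log2 fold change -0.52, adjusted p = 0.0135). Socs1, Ifnar1 and Ifnb1 were named after their values were seen.

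The interferon genes of this list were themselves low. Ifna1, Ifna2, Ifna4, Ifnl2 and Ifnl3 were at 0 in all 6 libraries. For these a count of 0 allows up to 0.381 (Ifna4) to 0.430 TPM (Ifna1), for counting error only. Other Ifna genes were not in the list. Ifnb1, a type I interferon, was at 1.59, 2.02 and 2.65 TPM in TG libraries, against 0, 1.12 and 0 TPM in WT libraries, or 62 reads against 11. Its log2 fold change of 1.25 passed the test (limma adjusted p = 0.0232). Without TG replicate 2, TG replicate 3, WT replicate 1 or WT replicate 3 the adjusted p was 0.0684 to 0.0818, and in the authors' deposited table it was 0.341. The log2 fold change of Ifnb1 was 3.83 on log2 CPM of recovered reads, 3.22 with a pseudocount of 0.1 and 2.43 in the authors' deposited table. Ifng, the type II interferon made by T and NK cells, was at 1.77, 1.22 and 1.19 TPM in TG libraries, against 0.270, 0.195 and 0.331 TPM in WT libraries. Its 65 reads in TG and 12 in WT gave a log2 fold change of 0.91 (limma adjusted p = 0.00553). The log2 fold change of Ifng was 2.26 on log2 CPM of recovered reads, 2.02 with a pseudocount of 0.1 and 2.14 in the authors' deposited table.

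Of 30 other type I interferon response genes 23 rose and none fell, and the median log2 fold change was 0.36. Rtp4, known as a restrictor of flavivirus replication, averaged 24.7 TPM in TG and 13.6 TPM in WT (log2 fold change 0.82). Ifi27l2a, whose human relative is an interferon-inducible gene, averaged 175 TPM in TG and 99.4 TPM in WT (log2 fold change 0.81). Cxcl10, a chemokine for T cells, averaged 141 TPM in TG and 102 TPM in WT (log2 fold change 0.46). Lgals3bp, a secreted galectin-binding protein, averaged 237 TPM in TG and 185 TPM in WT (log2 fold change 0.35).

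Of 17 tested interferon-gamma response genes 15 rose and 1 fell, with a median of 0.37. Ciita, the master regulator of MHC class II genes, averaged 75.1 TPM in TG and 51.0 TPM in WT (log2 fold change 0.55). Tap1, a peptide transporter of antigen presentation, averaged 70.7 TPM in TG and 49.0 TPM in WT (log2 fold change 0.52). Gbp2, a guanylate-binding protein of cell-autonomous defence, averaged 45.2 TPM in TG and 29.9 TPM in WT (log2 fold change 0.58). The gene that fell, Nos2, encodes inducible nitric oxide synthase and averaged 14.3 TPM in TG and 61.2 TPM in WT (log2 fold change -2.02). All of these genes were compared in the same fit, and no difference between a list and the OAS genes was tested.

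None of the tested genes next to the OAS genes was called. Within 100 kb there were 16 other genes, Oas1d, Oas1e, Oas1f and Oas1h among them. Of these 6 passed the filter, and 0 of the 6 were called in either direction. Over all tested genes 8.71% were called higher and 13.2% lower, and 6 genes are too few to set 0 apart from these shares. The median log2 fold change of the 6 neighbours was 0.03. The neighbour 2210016L21Rik, beside Oasl1, averaged 15.6 TPM in TG and 14.9 TPM in WT (log2 fold change 0.07, limma adjusted p = 0.694). On the Oas2 side of the cluster Dtx1, an E3 ubiquitin ligase of the Notch pathway, averaged 2.78 TPM in TG and 3.17 TPM in WT (log2 fold change -0.14, adjusted p = 0.368). The neighbour with the largest log2 fold change, 2610524H06Rik, had 0.37 (adjusted p = 0.129). Log2 fold changes were 0.01 for Sppl3, 0.05 for 1500011B03Rik and -0.08 for Ankrd13a.

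**Figure D4:**
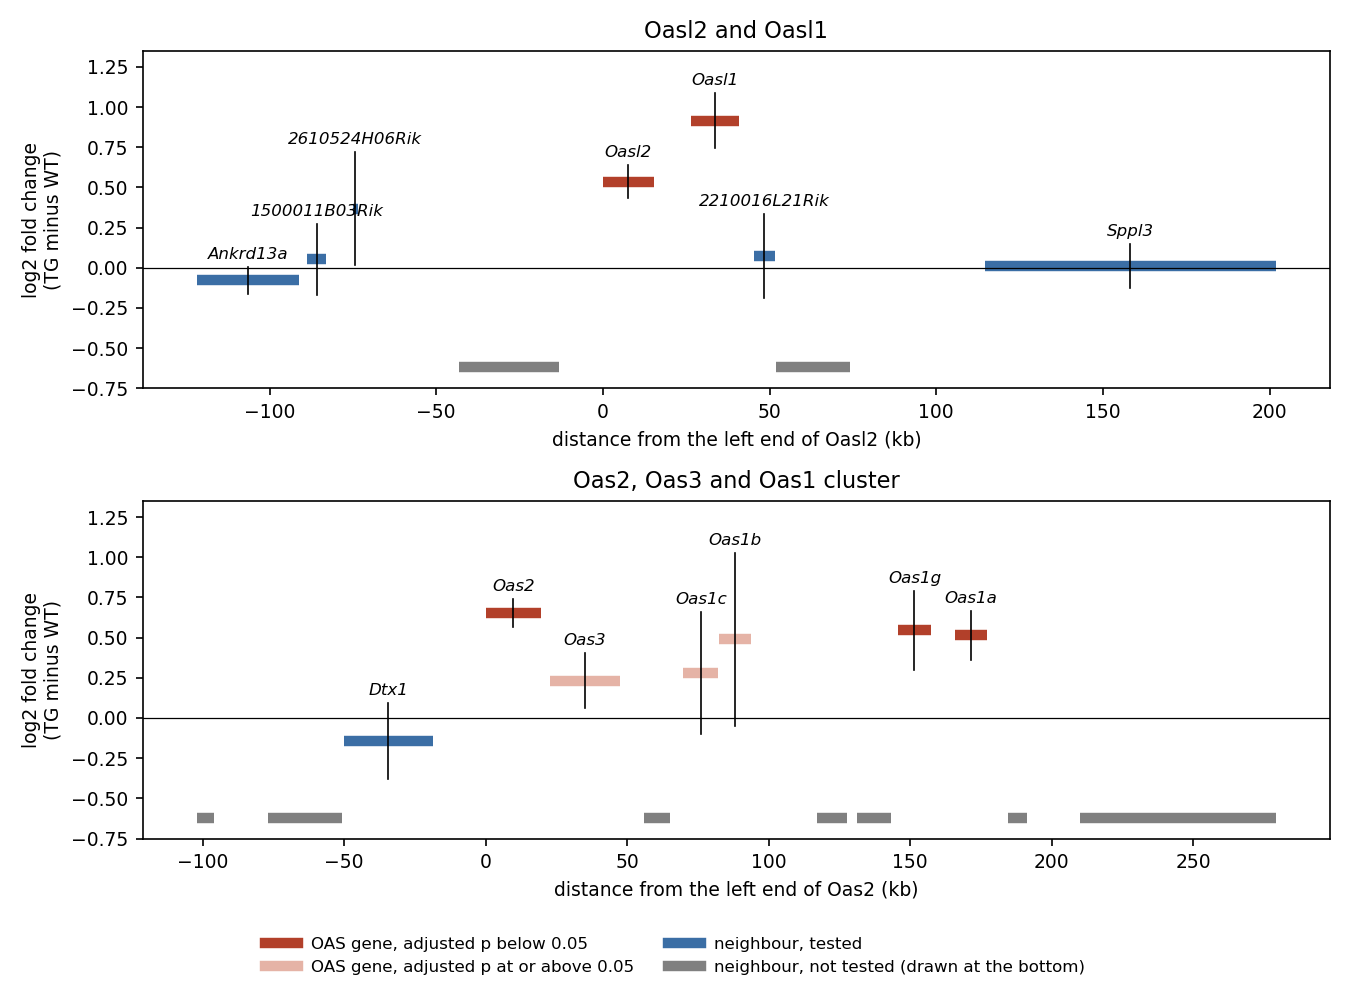
The OAS genes and their neighbours within 100 kb, drawn to scale by distance in kb from the left end of Oasl2 (upper panel) and of Oas2 (lower panel), at their log2 fold change (TG minus WT) with 95% intervals. Untested genes are grey at the bottom, and the OAS genes lie at 0.23 to 0.92 while the tested neighbours lie at -0.14 to 0.37.

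The 6 genes closest in pattern to the mean OAS profile over the 6 libraries were H2-T9, Igf1, H2-T22, Ly6a, B3gnt7 and Ccl8. H2-T9 (36038409 to 36042692) and H2-T22 (36038407 to 36042742) overlap on the minus strand of chromosome 17. Their reads were nearly the same, at 2263 and 2284 in TG and 1518 and 1548 in WT, so they are not separate matches. Closeness was the root-mean-square difference of centred log2(TPM + 1), which ran from 0.00335 for H2-T9 to 0.0312 for Ccl8 among 8581 candidates. Of the OAS genes themselves Oasl2 was closest to that profile, at 0.0446, and Oas1b farthest, at 0.278. These are descriptions over 6 libraries that fall into groups of 3.

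Markers of other cell types also differed between the groups. Of 12 tested markers of T, NK and innate lymphoid cells 5 rose (Cd8a, Cd2, Klrk1, Nkg7 and Gzmb), and the summed list was at 161 to 172 TPM in TG and 143 to 149 TPM in WT libraries. Of 6 tested markers of plasmacytoid dendritic cells, known as strong producers of type I interferon, 3 rose (Siglech, Cox6a2 and Klk1), with a sum of 76.3 to 79.7 TPM in TG and 53.1 to 57.3 TPM in WT. Siglech, their defining receptor and named after its value was seen, averaged 3.16 TPM in TG and 0.737 TPM in WT. It was a small part of that sum, most of which came from other genes of the list. For the lymphoid and both dendritic lists every TG sum lay above every WT sum. Of 9 tested markers of conventional dendritic cells 4 rose (Clec9a, Dpp4, Batf3 and Itgae) and Fscn1 fell, with a sum of 100.3 to 111 TPM in TG and 76.0 to 81.8 TPM in WT. Neutrophil markers fell for 6 of 7 tested, with a sum of 409 to 466 TPM in TG and 993 to 1022 TPM in WT. Epithelial markers fell for 7 of 10, with a sum of 570 to 579 TPM in TG and 1031 to 1040 TPM in WT. The neutrophil and epithelial sums were lower in every TG library than in every WT library. Of 6 B cell and plasma cell markers Jchain alone rose and 4 had a negative log2 fold change (median -0.03). The sum, most of it Jchain, was 252 to 271 TPM in TG and 217 to 229 TPM in WT. No marker in these lists was at 0 in all 6 libraries. Their part in the OAS values was not tested.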

How the data were processed

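Macrophages were isolated with a cell sorter and polyadenylated RNA was taken from 20 ng of total RNA, per the labels' protocols. Per the submitters' processing notes the tools were bcl2fastq, STAR, HOMER 4.11.1 and DESeq2 and the build was mm10, with no settings given. The authors deposited TPM over exons, 1 RefSeq transcript per gene, per the file headers. A second table the authors deposited gives regularized log2 values counted over the gene span, log2 fold changes and p-values. The deposited files hold no read counts, so no count model was run. Multiplied by exon length, 100% of the TPM values worth up to 1000 reads were whole reads within 0.1 reads, and these are the recovered reads.

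Values of log2(TPM + 1) were fitted with limma-trend (limma 3.58.1 in R 4.3.3), with genotype as the only term and all 6 libraries, for genes averaging 1 TPM or more in TG or in WT. A fold change on this scale understates the change of low genes. The fit was also run on simulated Poisson reads drawn from the WT mean. These hold no spread between replicates beyond counting, so they cannot show how the fit handles such spread. The OAS genes and the lists were chosen with earlier results of these data known. The text names all 8 OAS genes, Nfil3, of each list up to 4 genes with the lowest unadjusted p, up to 6 neighbours and the 6 genes closest in pattern. Sequences and their positions are from RefSeq (GRCm38.p6) and shared stretches and overlaps from GENCODE M21. Alternatives were other filters, pseudocounts and scalings, log2 CPM of recovered reads, limma without the trend, a replicate block and each library left out. Some genes of the planned lists are not reported here. A planned comparison of protein sequences was not run.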

Additional observations from a re-analysis of the deposited data

How the results depend on the processing

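Over 16 alternative settings 5 to 7 OAS genes were called higher and 0 lower; 7 were called on log2 CPM of recovered reads, where calls over all genes also rose, to 1641 higher and 2076 lower. Over all genes, leaving out each library in turn gave 704 to 883 called higher and 1231 to 1373 lower, and the authors' deposited table calls 2343 higher and 2756 lower. The authors' deposited table calls lower 1 gene of the oligoadenylate pathway (Abce1), 1 sensor and 3 genes of the interferon signalling list. On log2 CPM of recovered reads 2 of that list were lower. The sign of the log2 fold change varied for 4 genes that were not called. Akap7 was at 0.0040 with upper-quartile scaling, 0.15 in the authors' deposited table and -0.12 to 0.074 with each library left out. Over the libraries left out, Sppl3 ranged from -0.039 to 0.057, 2210016L21Rik from -0.051 to 0.15 and 1500011B03Rik from -0.030 to 0.0998. The authors' deposited table gives Sppl3 -0.041 and 2210016L21Rik -0.0062. The cause was not tested. With the replicate number as a block 5 OAS genes were called higher, and 922 genes were called higher and 1457 lower. Same-numbered libraries did not deviate together (r of -0.01, -0.04 and 0.03), and different-numbered ones had an r of -0.04 to 0.06. With 3 libraries in each group this cannot show whether the numbers pair them. Oas1b and Oas1c had 29 to 102 reads per library, and the part of depth in their values was not tested.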
